A study of Homo sapiens with 16 samples.

Results

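The contact map of K562 cells after the longest HindIII digestion of the series, 12 h, comprised 4 of the 16 deposited samples. These were chosen by the label that gives the digestion time, and they are 2 replicate libraries that were each sequenced in 2 runs. K562 is an established human leukaemia line. In Hi-C, cells are fixed, their chromatin is cut by a restriction enzyme, neighbouring ends are joined in the nucleus, and the joined pairs are sequenced. All groups used here are K562 cells fixed with formaldehyde and digested with HindIII, without any other treatment, and they differ in digestion time, which was 0.25, 1, 3 or 12 h with 2 replicates each. The labels do not say whether replicates came from separate cultures, so p-values measure only the spread between these libraries, which may be technical. Both runs of a library were added together, which gave 196649572 contacts in 12 h replicate 1 and 171841607 in replicate 2. The 6 libraries of the shorter times held between 71696245 and 160355301 contacts.

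In the interphase nucleus each chromosome fills its own territory, so that most contacts join loci of the same chromosome (cis) and fewer join different chromosomes (trans). Within territories, active gene-rich chromatin and inactive gene-poor chromatin tend to keep apart in 2 compartments, and on a finer scale the chain is divided into domains whose boundaries few contacts cross. The K562 karyotype is rearranged and is known for the Philadelphia translocation, which joins material of chromosomes 9 and 22 and fuses BCR to ABL1. Contact maps show such joins as strong trans signal, because the map is drawn on the normal chromosome order.

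The label K562 was checked on that join. The 500 kb bin at chr9:133500001-134000000 and the bin at chr22:23500001-24000000 (hg19 coordinates throughout) shared 8981 contacts in replicate 1 and 7955 in replicate 2. That was 102-fold the number expected from the trans totals of both bins. The other 6 libraries held 1712 to 4927 contacts at this bin pair, so the join was present in every library.

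At 12 h most contacts stayed within a chromosome. The cis share was 88.2% in replicate 1 and 88.0% in replicate 2, or 88.1% ± 0.143 (SD, n = 2). The 6 other libraries ranged from 89.4% to 90.4%, so both 12 h libraries lay below all of them. The difference of the means was -1.74 percentage points (exact two-sided permutation p = 0.0714 with the smaller tail doubled, the smallest this form can give for 2 against 6 libraries, so that it cannot reach 0.05). Counted by the size of the difference instead, a form chosen after seeing the data, 1 of 28 arrangements was as large (exact permutation p = 0.0357). Contacts inside a 100 kb bin made up 28.7% ± 0.40 (SD, n = 2) of cis contacts at 12 h against 35.4% to 40.9% in the other libraries. With those contacts left out the cis share was 84.1% ± 0.107 (SD, n = 2) against 84.5% to 85.4%. For that difference, 3 of 28 arrangements were as large (exact permutation p = 0.107 by size, and 0.0714 with the tail doubled).

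Long chromosomes kept more of their contacts to themselves than short ones. By chromosome, where a trans contact counts for both of its chromosomes, the cis share was highest on chromosome 2, with 83.2% in replicate 1 and 83.0% in replicate 2. Chromosome 4 followed with 83.0% and 82.8%, and X with 81.8% and 81.6%. These have 5.31, 4.11 and 5.79 protein-coding genes per Mb of valid bins, the measure of gene density used throughout, against 28.6 on the most gene-dense chromosome, 19. The share was lowest on chromosome 22, with 59.7% and 58.9%, a chromosome whose material is joined to chromosome 9 in this line. Chromosome 17 had 69.9% and 69.3%, and chromosome 21 had 70.2% and 69.7%. Across the 23 chromosomes the mean share was related to length with r = 0.805 (Spearman's rho 0.876) and to protein-coding genes per Mb with r = -0.567 (rho -0.647). These are descriptions over chromosomes of the same 2 libraries, and length and gene density share the order of chromosomes.

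Every chromosome had a lower cis share at 12 h than in all 6 other libraries. In limma's fit of the log2 ratio of cis to trans contacts, 23 of 23 chromosomes fell (percent called 100), by a median of 0.25. Chromosome 19 fell by 0.33 ± 0.024 (SE; limma, Benjamini-Hochberg adjusted p = 2.57e-22), with shares of 71.1% and 70.5% against 74.1% to 76.9%. Chromosome 12 fell by 0.29 ± 0.024 (SE) and chromosome 21 also by 0.29 ± 0.024 (SE). All chromosomes of a library move with its overall cis share, and limma pooled the spread over all 23, so these calls are not 23 independent results. With contacts inside 100 kb bins left out, 0 chromosomes passed limma's test and 10 had an unadjusted p under 0.05, and the change of chromosome 19 turned to 0.01.

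**Figure D1:**
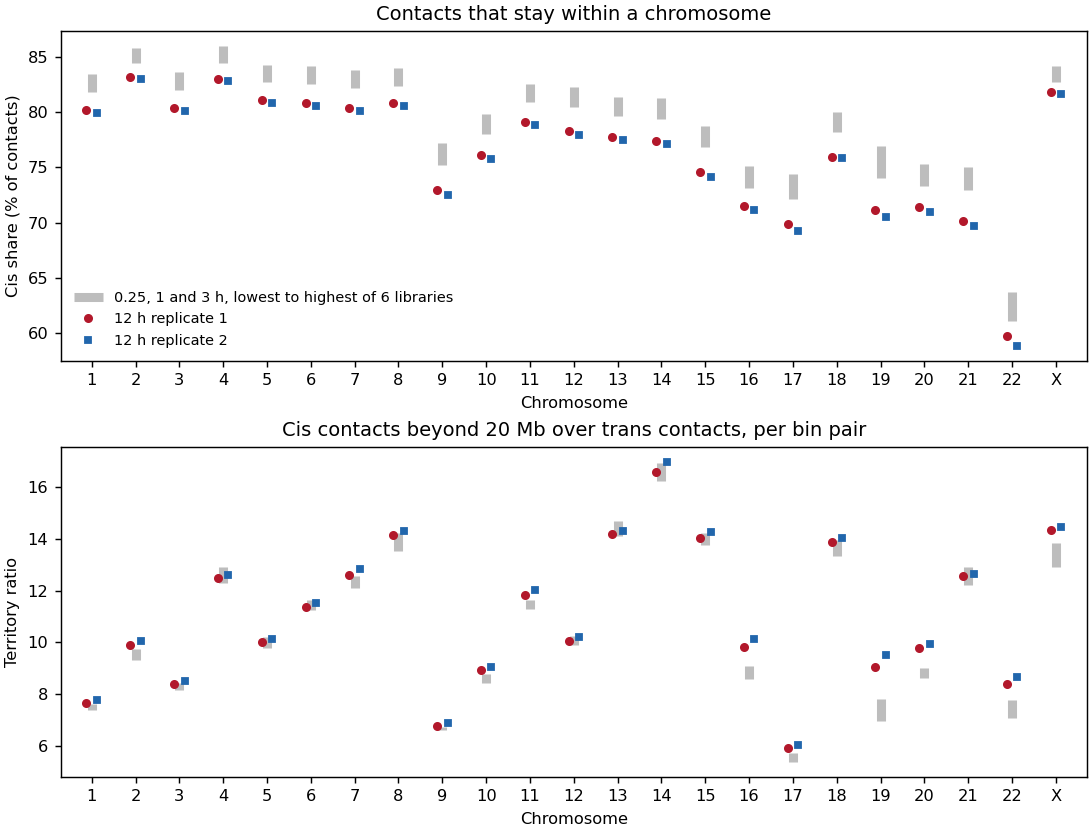
Upper plot: share of contacts within the chromosome (%), by chromosome. Lower plot: territory ratio, the mean contacts per pair of 100 kb bins of the same chromosome more than 20 Mb apart over the mean per trans bin pair of that chromosome. Circles and squares are the 2 replicates of 12 h, and grey bars span the 6 libraries of the shorter times. Both 12 h replicates lie below the grey bar on all 23 chromosomes in the upper plot and above it on 12 of 23 in the lower plot.

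Contact frequency fell steeply with distance and stayed above the trans level up to 150 Mb, the largest distance measured. Taking the mean contacts per trans bin pair as 1, pairs of bins 1 Mb apart had 1281 ± 7.47 (SD, n = 2), pairs 10 Mb apart 68.5 ± 0.659 and pairs 50 Mb apart 8.77 ± 0.0624. At 100 Mb the level was still 3.37 ± 0.0253 times that of trans pairs, and at 150 Mb it was 3.45 ± 0.0311. The slope of log10 contact frequency on log10 distance, from 0.5 to 10 Mb, describes how fast the chain loses contact with itself.

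The decay was steepest on 3 short chromosomes with many genes per Mb, though not on all such chromosomes. Chromosome 19 had slopes of -1.46 and -1.45 in replicates 1 and 2, chromosome 17 -1.40 and -1.39, and chromosome 22 -1.38 and -1.37. It was shallowest on X, with -1.26 and -1.25, then on chromosome 11, with -1.29 and -1.28 and 9.98 genes per Mb, and on chromosome 9, with -1.30 and -1.29. Over 23 chromosomes the slope was related to genes per Mb with r = -0.771 and rho -0.429. The slope was steeper at 12 h than in every other library on all 23 chromosomes, and 23 of 23 passed limma's test (percent called 100), with a median difference of -0.06. The largest differences were on chromosome 22, at -0.075 ± 0.00539 (SE; limma adjusted p = 4.56e-23), on 17, at -0.069 ± 0.00539, and on 12, at -0.065 ± 0.00539. The spread was pooled over all 23 chromosomes of the same libraries, so these calls are not 23 independent results. The direction did not hold for a slope from 1 to 30 Mb, where 14 chromosomes passed, all of them shallower at 12 h, and chromosomes 22, 17 and 12 changed by 0.02, 0.03 and 0.01.

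Beyond 20 Mb, loci of a chromosome still met more often than loci of different chromosomes, and this excess is used here as a measure of the territory. The ratio of cis contacts beyond 20 Mb to trans contacts, both per bin pair, was highest on chromosome 14, at 16.8 ± 0.260 (SD, n = 2). X had 14.3 and 14.5 in the 2 replicates, and chromosome 8 had 14.2 and 14.3. It was lowest on chromosome 17, with 5.90 and 6.05, on chromosome 9, with 6.78 and 6.89, and on chromosome 1, with 7.67 and 7.78. Chromosomes 9 and 17 are also among those with the most strong trans bin pairs described below. The part of those contacts in the low ratios was not tested. All bin pairs beyond 20 Mb count, so the ratio of a long chromosome includes larger distances. Over chromosomes 1 to 22 the level was 36.0 times that of trans pairs at 20 Mb and 3.37 times at 100 Mb. Ratios of chromosomes of unlike length are thus not taken over the same distances.

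Against the shorter times the territory ratio rose on 11 of 23 chromosomes (limma, percent called 47.8), and no chromosome passed the test in the other direction. The largest change was again on chromosome 19, where the ratios of 9.03 and 9.50 compared with 6.95 to 7.82 in the other libraries. Its log2 difference was 0.30 ± 0.021 (SE; limma adjusted p = 7.97e-24). This SE is of a spread pooled over all 23 chromosomes, not of chromosome 19 alone, so the calls are not independent results. Chromosome 22 rose by 0.20 ± 0.021 and chromosome 16 by 0.16 ± 0.021 on the log2 scale. The gene-poor chromosome 13 changed by -0.002 ± 0.021 and chromosome 21 by 0.001 ± 0.021, and their libraries overlapped with the shorter times. The number of chromosomes called fell to 6 without 12 h replicate 2 and rose to 19 without 0.25 h replicate 1. Beyond 50 Mb, 18 of the 21 chromosomes long enough to be tested rose.

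On most chromosomes, counts of contacts between the short arm and the long arm were below those at the same distance within an arm. On 18 chromosomes with enough bins on both sides of the longest absent stretch, contacts across it were set against contacts at the same distance within an arm. The ratio was below 1 on 16 of 18, with a median of 0.712. It was lowest on chromosome 17, with 0.255 in both replicates, on chromosome 20, with 0.461 and 0.472, and on chromosome 7, with 0.474 and 0.474. On chromosomes 1 and 18 it was 1.02 ± 0.0103 and 1.03 ± 0.000395 (SD, n = 2). The longest absent stretch stands for the centromere here, since no centromere table of hg19 was used. The counts were corrected for distance and not for the coverage of bins, so arms of unequal coverage can lower the ratio. Coverage was uneven along chromosomes 17 and 7, as given below, and its part in these ratios was not tested.

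High contacts between chromosomes included those held by few bin pairs and those spread over pairs of short chromosomes. Observed over expected contacts were computed for all pairs of chromosomes from the trans totals of both. The highest were chromosomes 9 and 22, with 3.03 and 3.00 in the 2 replicates, then 13 and 22, with 2.97 and 2.99. Chromosomes 12 and 21 had 2.40 in both, 9 and 13 had 2.12 ± 0.0121 (SD, n = 2), and 17 and 19 had 1.89 in both. The lowest 5 pairs all held chromosome 22, with X at 0.557 ± 0.0130 (SD, n = 2), 4 at 0.580 ± 0.00552, 3 at 0.634 ± 0.00242, 8 at 0.649 ± 0.00319 and 7 at 0.658 ± 0.000280. Over all pairs the replicates had r = 0.9997, and no pair differed between them by more than 0.05 on the log2 scale.

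The highest 2 values came from few bin pairs. A pair of 500 kb bins was marked when it held more than 5 times its expected contacts and at least 20 contacts. This applied to 15430 of 14810509 trans bin pairs, or 0.104%, which held 2.87% of trans contacts in replicate 1 and 2.92% in replicate 2. On chromosomes 9 and 22 only 31 marked bin pairs held 71.3% of the contacts, and on 13 and 22 126 bin pairs held 81.0%. Without marked bin pairs chromosomes 9 and 22 dropped from 3.01 to 1.13 and 13 and 22 from 2.98 to 0.748. Chromosomes 12 and 21, with 1307 marked bin pairs, dropped from 2.40 to 1.44. Chromosomes 9 and 13, with 882, dropped from 2.12 to 1.09. The order then led with 17 and 22 at 2.08, 19 and 22 at 2.07, 17 and 19 at 1.90, 16 and 19 at 1.70 and 20 and 22 at 1.66. The lowest were then 22 and X at 0.657, 4 and 22 at 0.686, 4 and 19 at 0.705, 2 and 19 at 0.725, and 17 and X at 0.728, so that only 2 of the 5 held chromosome 22. The leading pairs join short and mostly gene-rich chromosomes, known to lie near the centre of the nucleus in many cell types.

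**Figure D2:**
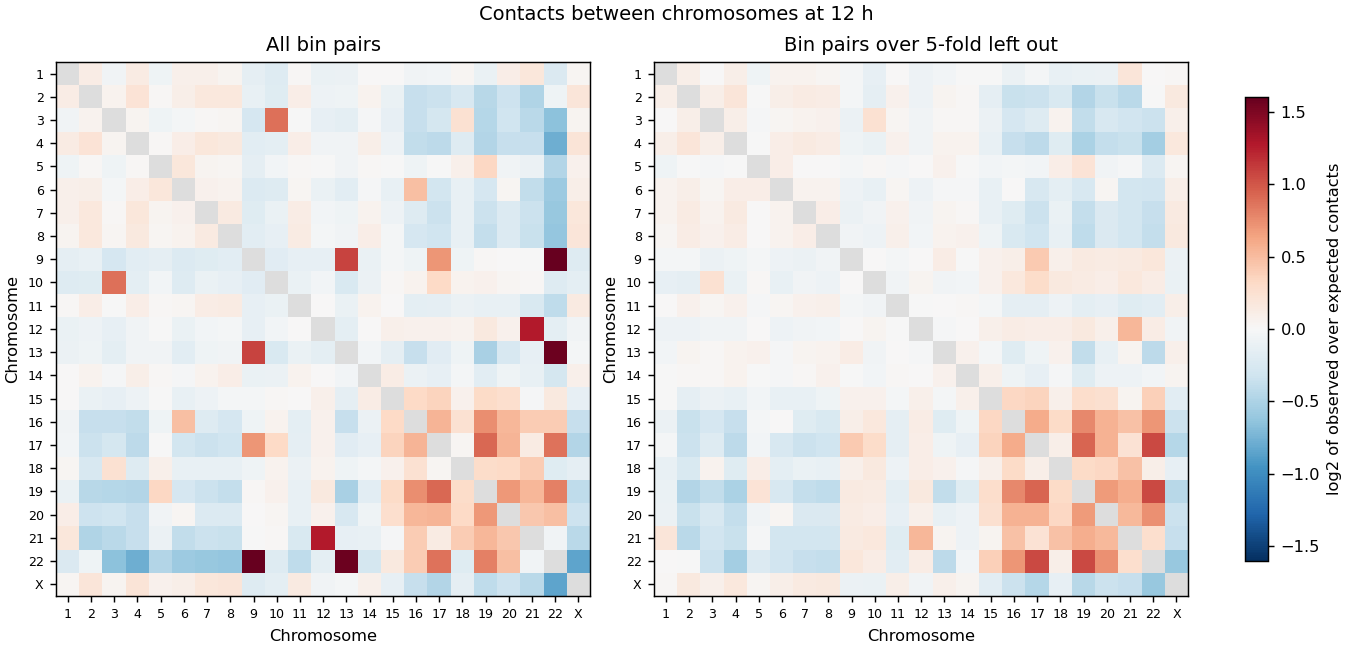
Observed over expected contacts for each pair of chromosomes at 12 h (log2 colour scale, mean of both replicates on the left, sum of both without marked bin pairs on the right; grey, the chromosome with itself). The single dark red squares at 9 and 22, 13 and 22, 12 and 21, and 9 and 13 pale on the right, where all pairs among chromosomes 15 to 22 are above 1.

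Marked bin pairs lay on a limited set of chromosome pairs. Those with at least 250 marked bin pairs numbered 12 and held 73.9% of all marked bin pairs. Chromosomes 3 and 10 had 3632, which held 43.1% of the contacts between them. Chromosomes 12 and 21 had 1307, 9 and 17 had 1179, 6 and 16 had 924, and 9 and 13 had 882. Broad fields of marked bin pairs (3 and 10) thus stood beside small, dense ones (9 and 22). Which of these are joins in the K562 genome was not tested here, since contacts alone were used.

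Ranked by fold over expected, with at most 1 bin pair for each pair of chromosomes, the strongest 10 did not all behave alike. The first joined chr1:149000001-149500000 with chr2:91500001-92000000, with 530-fold the expected number. It was followed by chromosomes 18 and 21 (497-fold), 1 and 7 (437-fold), 2 and 8 (423-fold), 1 and 10 (423-fold), 12 and 21 (406-fold), 1 and 16 (395-fold), 5 and 6 (355-fold), 3 and 10 (345-fold) and 3 and 6 (238-fold). The join of 9 and 22 ranked 29th by this measure with 167 contacts expected, but it held the most contacts of all bin pairs named here. Expected numbers were between 1.06 and 9.14 contacts for these 10, summed over both replicates. Several of their bins border or overlap stretches absent from the map. The chromosome 2 bin of the first pair overlaps the end of the absent stretch chr2:90500001-91700000 and lies before the absent stretch chr2:92200001-95300000. The chromosome 3 bin of the last pair ends where the absent stretch chr3:90500001-93500000 begins. Whether reads of repeated sequence were placed at the wrong copy there was not tested, so a fold at these bin pairs is not by itself a sign of a join.

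Set against digestion time, these bin pairs split into groups. The bin pair at chr1:83500001-84000000 and chr7:76000001-76500000 held 267 contacts in each 12 h replicate, and 239 to 379 in the shallower libraries of the shorter times. Per 1000000 trans contacts it held 12.2 ± 1.01 (SD, n = 2) at 12 h against 22.7 to 37.9 in the other 6 libraries, or 0.441 times their mean. The bin pairs of 1 and 10 (0.385 times), 18 and 21 (0.485 times) and 2 and 8 (0.506 times) were also below the whole range of the other libraries. In contrast, the join of 9 and 22 held 387 ± 1.25 per 1000000 (SD, n = 2) against 244 to 300, or 1.37 times the mean, above all other libraries. The bin pairs of 5 and 6 (0.998 times), 1 and 16 (0.992 times) and 3 and 6 (0.853 times) lay within the range of the other libraries. Those of 3 and 10 (1.15 times) and 1 and 2 (1.44 times) lay above it, and that of 12 and 21 (0.845 times) below it. These ratios were not tested, since the bin pairs were chosen on the 12 h map.

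Between 12 h and the shorter times 101 chromosome pairs changed (limma on log2 observed over expected, percent called 39.9), 44 up (17.4%) and 57 down (22.5%). Expected contacts were fitted to the trans total of each chromosome, so a rise with some partners entails a fall with others. Rises and falls are thus not separate changes. Pairs of gene-rich chromosomes led the rises. Chromosomes 19 and 22 rose by 0.13 ± 0.011 (SE; limma adjusted p = 0.000215), 17 and 19 by 0.11 ± 0.011, and 16 and 19 by 0.090 ± 0.014. Chromosomes 13 and 22 fell by 0.27 ± 0.019 (SE; limma adjusted p = 0.000137). Of their contacts 81.0% lay in 126 marked bin pairs, which this fit included. Chromosomes 5 and 19 fell by 0.11 ± 0.0067, and 2 and 19 by 0.082 ± 0.0066. All of these are small next to the range between pairs. The count rested on both 12 h libraries, with 53 pairs called without replicate 1 and 42 without replicate 2, and 13 were called in the shallower first run alone.

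The 2 compartments were read from the leading eigenvector of the cis correlation map at 500 kb. Class 1 is the side that went with relatively more trans contacts to chromosomes 17, 19 and 22 than to 4, 13 and 18. This was judged across the bins of a chromosome, so it need not hold for each bin. Genes per bin were not used. Class 1 held 55.4% and 55.5% of the 5593 bins in the 2 replicates. On chromosome 9 the second eigenvector was used, because it had r = 0.662 with the trans contacts across bins and the first only 0.175. On the other 22 chromosomes the first eigenvector had the highest such r, between 0.680 on chromosome 22 and 0.943 on chromosome 21.

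The share of class 1 differed between chromosomes. It was highest on chromosome 22, with 89.4% and 92.4% in the replicates, on 17, with 68.8% and 69.5%, and on 19, with 66.4% and 65.4%. It was lowest on 21, with 37.7% and 39.1%, on X, with 48.1% in both, and on 4, with 49.1% and 49.6%. The classes of chromosomes 9 and 22 are less secure than the rest, since only 90.6% and 90.9% of their bins had the same class in both replicates, against 98.5% over all chromosomes. Of the 5593 bins 85 differed in class, and these had a median eigenvector size of 0.037 against 1.06 over all bins.

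Single stretches of a compartment could span 20 Mb or more. The longest run of class 1 was chr1:14000001-48500000, of 34.5 Mb, followed by chr3:40000001-67000000 with 27.0 Mb, chr12:104000001-125500000 with 21.5 Mb, chr9:1-21000000 with 21 Mb and chr6:24500001-44500000 with 20 Mb. All bins of these runs were class 1 in both replicates, except on chromosome 9, where 83.3% were in replicate 2. Such runs are rare, and the median of all 955 runs was 2.0 Mb.

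Between chromosomes, and within them beyond 2 Mb, bins met their own class more often than the other. From 0.5 to 2 Mb the value of class 2 pairs was above that of mixed pairs, and the value of class 1 pairs was slightly below it. The trans observed over expected contacts were 1.25 ± 0.00281 (SD, n = 2) within class 1, 1.42 ± 0.0102 within class 2 and 0.795 ± 0.00206 between the classes. Marked bin pairs were left out there. Within chromosomes the order changed with distance. From 0.5 to 2 Mb class 2 pairs were at 1.36 ± 0.0126, class 1 pairs at 0.808 ± 0.00753 and mixed pairs at 0.864 ± 0.00353. Beyond 30 Mb class 1 pairs had risen to 1.37 ± 0.0159, class 2 pairs were at 1.29 ± 0.0269 and mixed pairs at 0.668 ± 0.000906. Classes were read from these same libraries, so the excess within a class is a description of the map and not a test. The part of bin coverage in the values within chromosomes was not tested.

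Compartment strength sets the contacts among bins at the same end of the eigenvector, the top 20% or the bottom 20%, against the contacts between both ends. It was highest on chromosome 20, with 5.96 and 5.79 in the 2 replicates, on 1, with 5.84 and 5.81, and on 16, with 5.89 and 5.66. It was lowest on 22, with 2.25 and 2.29, on 21, with 3.01 and 2.94, and on X, with 3.40 and 3.34. On chromosome 1 observed over expected contacts were 1.65 ± 0.0246 (SD, n = 2) within the class 1 end and 1.62 ± 0.0484 within the class 2 end. On chromosome 19 they were 0.809 ± 0.000248 within the class 1 end, 0.428 ± 0.00235 between the ends and 3.14 ± 0.10 within the class 2 end. On chromosome 22 they were 0.692 ± 0.00556 within the top 20%, 0.837 ± 0.00373 between the ends and 3.11 ± 0.0273 within the bottom 20%. With 90.9% of all its bins in class 1, that bottom 20% also held class 1 bins. Strength and these values came from counts corrected for distance only, so unequal coverage of the bins at the ends enters them. On chromosome 19 both values within an end were above the value between the ends. On chromosome 22 the value within the top 20% was below that between the ends. The part of coverage in these values was not tested. Whether the share of class 1 on chromosome 22 describes a compartment as on the other chromosomes was thus not settled.

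Strength rose at 12 h on 21 of 23 chromosomes (limma on log2 strength, percent called 91.3), and both replicates lay above all other libraries on those 21. The rise was largest on chromosome 1, at 0.36 ± 0.021 on the log2 scale (SE; limma adjusted p = 1.41e-09), from 4.27 to 4.71 in the other libraries to 5.84 and 5.81. Chromosome 21 rose by 0.34 ± 0.023 and chromosome 20 by 0.33 ± 0.030. The 2 chromosomes that did not pass were 19, at 0.037 ± 0.034, and 9, at 0.088 ± 0.042. The classes came from 12 h and favour it, but classes read from the other 6 libraries, and maps in which cis contacts between 500 kb bins were thinned to an equal total, also gave 21 rises.

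**Figure D3:**
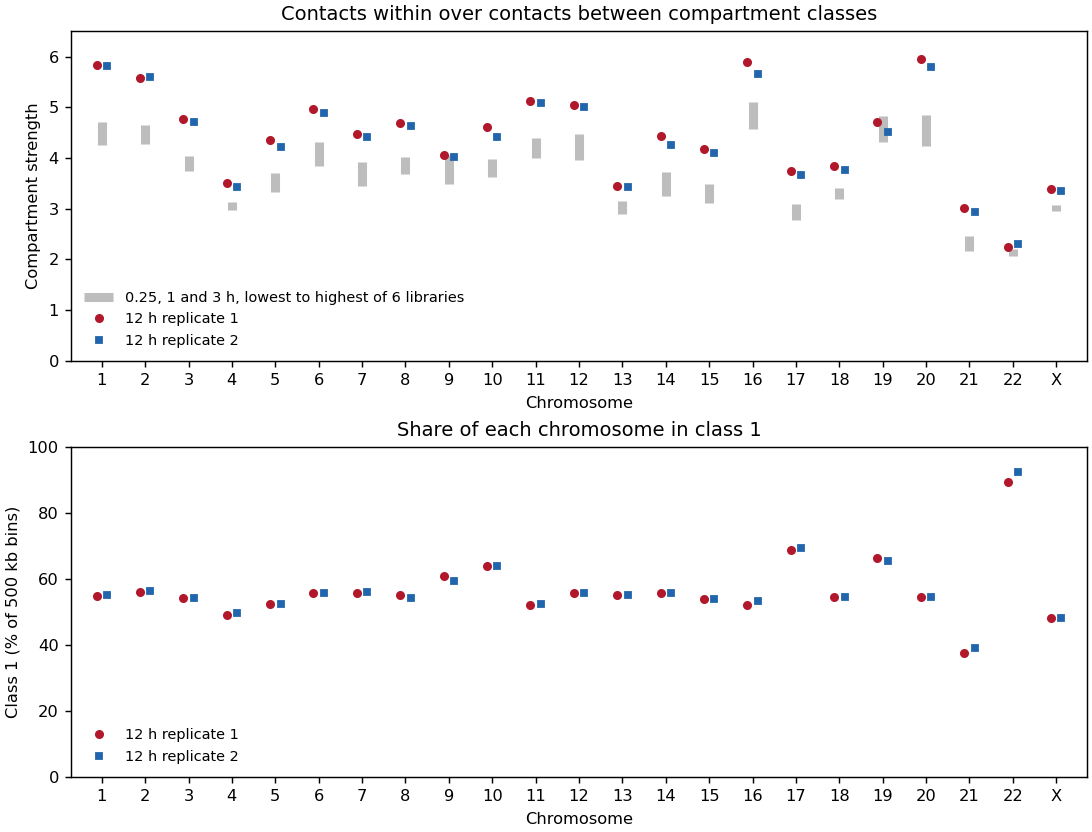
Upper plot: compartment strength (a ratio) by chromosome, with both 12 h replicates as points and the range of the 6 libraries of the shorter times as grey bars. Lower plot: share of 500 kb bins in class 1 (%) in each 12 h replicate. Strength lies above the grey bar on 21 of 23 chromosomes, and chromosome 22 stands out with 89.4% and 92.4% of its bins in class 1.

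Domains were read from the insulation score, the log2 of the contacts that cross a 100 kb bin within 500 kb on either side over the chromosome mean, so that a low score means few crossing contacts. A boundary was a local minimum with a prominence of at least 0.2. The summed 12 h map had 2838 boundaries, and replicates 1 and 2 alone had 2854 and 2825. Of the 2838, 95.7% lay within 1 bin of a boundary in both replicates, and 1 was found in neither. Boundaries found in both had a median prominence of 0.798, the others of 0.226, so those that were not shared were shallow. At 40 kb, in the deeper second run, 3349 boundaries were called and 95.3% of the 100 kb boundaries had one within 100 kb.

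Boundaries lay closer together in class 1 than in class 2. Neighbouring boundaries were a median of 800 kb apart (quartiles 600 and 1100 kb). The median was 700 kb for the 1450 intervals that lay in class 1 and 1100 kb for the 659 in class 2. There were 12.2 and 12.0 boundaries per 10 Mb of class 1 in replicates 1 and 2, and 7.99 and 8.04 per 10 Mb of class 2. By chromosome, boundaries were densest on 17, with 11.8 per 10 Mb, and on 21 and 12, with 11.4 each. They were sparsest on 19, with 6.89, on X, with 7.92, and on 16, with 9.10. Gene density did not give this order, since 19 and 17 have the most genes per Mb. As a description over 23 chromosomes, rho was 0.207 and r was -0.377, of opposite sign.

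The deepest boundaries were found in both replicates. The lowest score, -2.57, was at chr4:160400001-160500000, with -2.66 in replicate 1 and -2.48 in replicate 2. The next were chr13:81500001-81600000 at -2.10, chr10:65500001-65600000 and chr5:90700001-90800000 at -2.07, and chr1:149700001-149800000 at -2.06. The longest interval without a boundary ran from chr14:82000001-87400000, and its boundary bins were 5300 kb apart. It was followed by intervals of 4200 kb at chr3:172400001-176700000, 4000 kb at chr2:114700001-118800000, 3600 kb at chr17:49300001-53000000 and 3600 kb at chr4:27000001-30700000. At least 94.4% of each of these 5 intervals was class 2.

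Boundaries lay near class changes more often than near 500 kb bin edges inside a class, though inside class 1 most edges had one as well. Of the 878 places where the class changes, 75.1% had a boundary within 250 kb (Wilson 95% interval 72.1% to 77.8%, counting error only). The share was 65.6% at edges of 500 kb bins with class 1 on both sides and 40.1% with class 2 on both sides. Both readouts come from the same maps, so this is a description. The mean score at a boundary was -0.58 and -0.56 for class 1 in the 2 replicates, and -0.60 and -0.59 for class 2. At 500 kb to either side the scores had risen to between 0.05 and 0.06 for class 1 and between 0.13 and 0.14 for class 2.

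**Figure D4:**
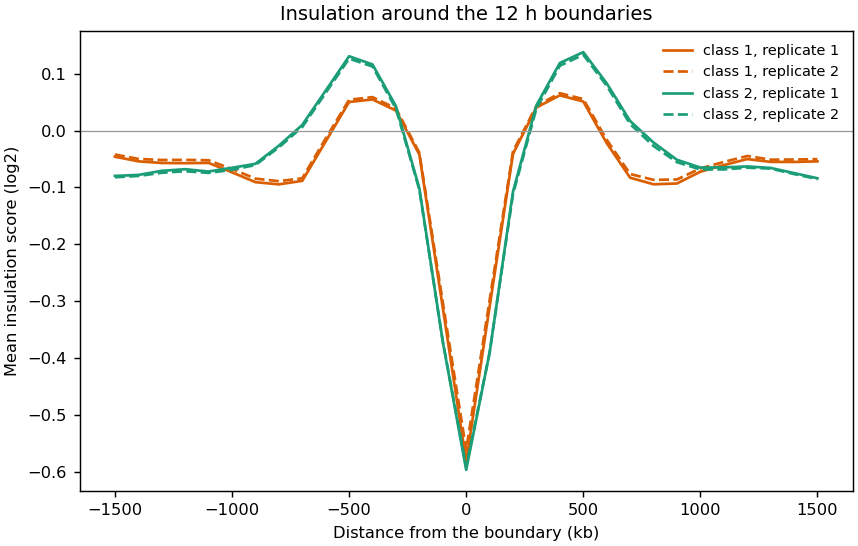
Mean insulation score (log2) against distance from the boundary (kb) for the 12 h boundaries, by compartment class (colour) and replicate (solid, 1; dashed, 2). Both replicates dip to between -0.60 and -0.56 at the boundary, and the shoulders at 500 kb are higher in class 2.

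The number of bins called for a different insulation score at 12 h depended on the settings. Of 27097 bins 11 passed limma's test (percent called 0.0406), 7 with a higher score at 12 h (0.0258%) and 4 with a lower one (0.0148%), all of them in class 1. Of the 2838 boundary bins 1 passed (0.0352%), with a lower score. At an unadjusted p under 0.05 there were 3503 bins. With the replicate number added to the fit as a block, 0 bins passed. The largest fall was at chr16:22200001-22300000, where the score was 0.26 and 0.16 at 12 h and 0.47 to 0.82 in the other libraries, a difference of -0.37 ± 0.045 (SE; limma adjusted p = 0.0435). The bins chr7:6400001-6500000 (-0.31) and chr16:22100001-22200000 (-0.28) followed. The largest rises were at chr20:62300001-62400000 (0.33), chr7:100400001-100500000 (0.26) and chr12:111000001-111100000 (0.25). With windows of 1 Mb 446 bins were called, and 231 after libraries were thinned to equal cis contacts within 2 Mb. None of the named calls was firm: without 1 h replicate 2, without either 3 h replicate or without either 12 h replicate 0 bins were called, without 1 h replicate 1 there were 3, without 0.25 h replicate 2 there were 28, and without 0.25 h replicate 1 there were 150. With windows of 300 kb the 3 named falls turned to differences of 0.08, 0.11 and 0.07.

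By their cis maps, the 2 replicates of 12 h were more alike than any other pair of libraries. These maps at 100 kb had a mean stratum-adjusted correlation, which compares contacts distance by distance up to 5 Mb, of 0.985. Chromosome 22 was highest at 0.992 and X lowest at 0.969, with chromosome 20 at 0.974 and 8 at 0.980 next to it. The 12 pairs of a 12 h library with one of a shorter time ranged from 0.948 to 0.976, and the 3 replicate pairs of the shorter times from 0.961 to 0.977. The 12 h libraries were also the deepest, and the part of depth in this order was not tested. In the first run alone, with 20237350 and 18375701 contacts, their value was 0.903. Across bins, the replicates had r = 0.995 for the insulation score, 0.995 for the eigenvector and 0.999 for log2 contact coverage. In log2 coverage 3 pairs of libraries of the shorter times had a slightly higher r, and all pairs of the shorter times lay between 0.995 and 0.999.

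Replicate coverage was also set against counting noise. A chi-square of their coverage per bin was 2.83 times its degrees of freedom, where 1 is expected from counting alone and the value grows with depth for any fixed difference. In the first run it was 1.07 and in the second 2.63. Between the first and second run of a library, where the first run limits the depth, it was 2.44 in replicate 1 and 2.51 in replicate 2, and r of log2 coverage was 0.995 and 0.994, below that between replicates. The 2 replicates, with runs added, also differed in contacts between the mitochondrial genome and the chromosomes, at 1047 and 129 per 1000000 contacts. Those contacts are part of the library totals given here and of no cis, trans or coverage value.

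**Figure D5:**
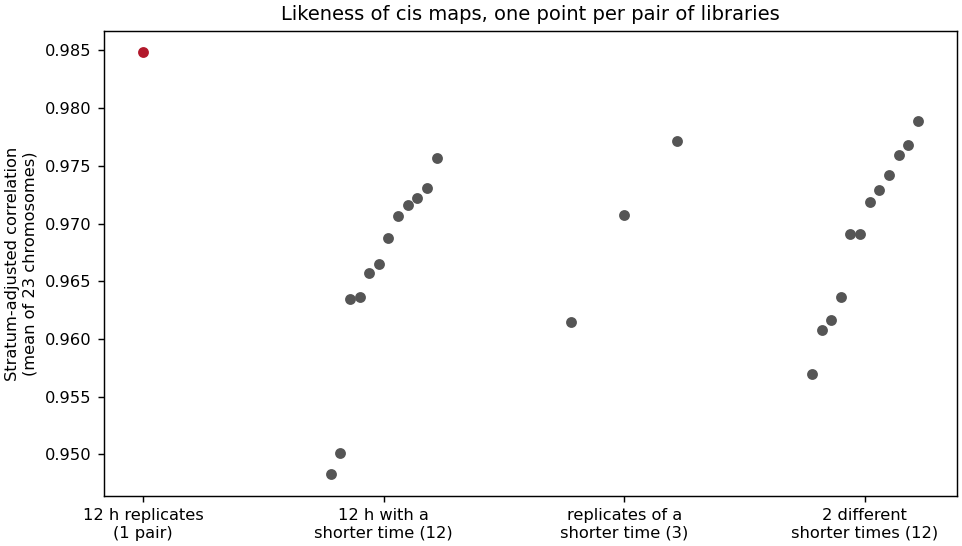
Mean stratum-adjusted correlation of cis maps over 23 chromosomes for each pair of libraries, by kind of pair; points of a kind are spread sideways in order of value, and the vertical axis does not start at 0. The 12 h replicates (red) are at 0.985, above the other 27 pairs, which lie between 0.948 and 0.979.

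Contact coverage, the number of contacts per 100 kb bin without balancing, varied widely along the K562 genome. Relative to the median autosomal bin, which held 11762 and 10339.5 contacts in the 2 replicates, chromosome 6 was highest at 1.28 in both. Chromosome 7 was at 1.27 in both, and chromosome 1 at 1.19 and 1.20. The lowest were 19, at 0.436 and 0.437, 22, at 0.458 and 0.459, and 17, at 0.611 and 0.623. X was at 0.659 and 0.653. The 3 lowest chromosomes are also the 3 with the most protein-coding genes per Mb of valid bins, which leave out much of chromosome 22, at 28.6 on 19, 15.3 on 17 and 14.1 on 22. Coverage counts joined fragments and was not turned into copy numbers.

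Runs of bins above 1.5 times the median held 10.6% of bins, and runs below 0.5 times held 8.00%. The longest high run was chr7:105200001-127700000, with a median of 2.12 in replicate 1 and 2.08 in replicate 2, and with 1.67 for trans contacts alone. A further high run on the same arm, chr7:132200001-137800000, was at 1.98 and stayed at 2.00 in trans contacts. Next were chr6:46600001-51700000 at 1.71, chr1:189200001-194200000 at 1.75 and chr3:17000001-21900000 at 1.77. In trans contacts alone the first was at 1.52, the second at 1.05 and the last at 1.597, so the run on chromosome 1 was not high there. The longest low run was chr19:200001-9400000 at 0.248, followed by chr17:15300001-22100000 at 0.355, chr17:1-5500000 at 0.307, chrX:88400001-92500000 at 0.262 and chr19:47600001-51900000 at 0.319. In trans contacts alone the low runs on 19 and 17 were higher, between 0.523 and 0.817, while that on X was at 0.221.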

How the data were processed

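Each deposited file lists pairs of genome bins and a balanced contact signal, in which the authors scaled every bin to the same total. The submitters' processing notes name HiC-Pro 2.11.1, Bowtie2 2.3.4.1 and build hg19; the bin sizes, 50 kb in the first run and 20 kb in the second, were read from the highest bin numbers, and the filter on bins is not given in the sources used here. Because every signal is a whole number of contacts times 1 factor per bin, whole contacts were recovered: 100% of values came within 0.01 of a whole number, as did 100% of pairs in simulated matrices. Contacts were summed in 100 kb bins over chromosomes 1 to 22 and X (27756 of 30376 bins, those at least 50% present in all files), and runs of a library were added. Contacts are amplified reads, so intervals cover counting error only.

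limma 3.58.1 (R 4.3.3) was fitted to all 8 libraries, as 12 h minus the mean of the 3 shorter times. Benjamini-Hochberg adjustment was at 0.05. On simulated tables of the same size it recovered all added changes. These were large against the spread, at 0.319 for the cis share (log2) and 0.349 for insulation, and smaller changes were not tried. Simulated features varied independently with a common spread, while the chromosomes of a library move together, a setting that was not tried. False calls numbered 12 among insulation bins (200 changed), 2 for strength and 1 for territory. There was 1 among chromosome pairs and 0 for the cis share and the slope. Other steps used Python 3.11.15, NumPy 2.4.6 and SciPy 1.17.1. Class 1 and 2 maps used 500 kb bins at least 60% valid. Gene numbers per chromosome came from RefSeq (GRCh38.p14) and served as counts only. No gene is named for an interval, since no hg19 annotation was used. Named features followed a rule on rank: the 3 highest and 3 lowest chromosomes for each measure, the 5 highest and 5 lowest chromosome pairs, the 10 strongest trans bin pairs, the 5 longest runs and intervals, the 5 lowest boundaries, and up to 3 called features for each direction of a fit. The members and lists were chosen with earlier results of these data known.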

Additional observations from a re-analysis of the deposited data

Results flagged for a closer look

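Contacts of the mitochondrial genome lie outside the comparisons of the report. In 12 h replicate 1 the mitochondrial genome was joined to the chromosomes 1047 times per 1000000 contacts. Replicate 2 had 129 per 1000000, so that the replicates differed 8.14-fold, and the 6 libraries of the shorter times had 157 to 557. Contacts inside the mitochondrial genome were 0.00790% and 0.00508% of all contacts in 12 h replicates 1 and 2, against 0.0205% to 0.0696% at the shorter times. The cis shares of the 2 replicates, 88.2% and 88.0%, do not count these contacts, and the cause of the difference was not tested.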

How the results depend on the processing

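For the 12 h map itself, the cis share became 84.1% without contacts inside a bin and 87.4% in the deposited balanced signal of the second run. Class 1 took 54.4% of bins in the first run, 53.8% at 1 Mb and 54.0% with the first eigenvector on every chromosome, an alternative added after the data were seen, and 55.4% to 55.5% with a replicate left out. The replicate correlation was 0.903 in the first run, and the coverage of X over the autosomes, 0.657, became 0.642 there and 0.560 in trans contacts. Boundary numbers ran from 1967 (1 Mb windows) to 3704 (300 kb windows).

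Of the comparisons with the shorter times, compartment strength was called on 20 to 23 chromosomes under every alternative run. Calls of the cis share went from 23 to 0 without contacts inside a bin, where the change of chromosome 19 turned to 0.0067. Calls of the slope went from 23 steeper to 14 shallower from 1 to 30 Mb, where chromosomes 22, 17 and 12 changed by 0.0173, 0.0262 and 0.00716. Territory calls were 18 beyond 50 Mb and 6 to 19 with a library left out. Chromosome pairs called were 54 against 3 h only, 13 in the first run and 42 to 121 with a library left out. Insulation bins called were 0 against 3 h only (1704 at an unadjusted p under 0.05), 0 in the first run (1064), 1 at 300 kb (where chr16:22200001, chr7:6400001 and chr16:22100001 changed by 0.0788, 0.106 and 0.0672), 446 at 1 Mb, 231 after thinning to equal cis contacts within 2 Mb and 0 to 150 with a library left out.

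Deviations of same-numbered libraries correlated between -0.69 and 0.72, which does not settle whether replicate numbers pair the libraries. For the cis share by chromosome, 4 of 6 such correlations were over 0.1. The cis share of all contacts was higher in replicate 1 than in replicate 2 at each digestion time, from 90.4% and 90.2% at 0.25 h to 88.2% and 88.0% at 12 h. With the replicate number as a block the calls were 23 (cis share), 10 (territory), 101 (chromosome pairs), 23 (slope), 22 (strength) and 0 (insulation bins, 3652 at an unadjusted limma p under 0.05), and the exact permutation p of the cis share was 0.125 with the smaller tail doubled, the smallest that the 16 arrangements allow in this form, and 0.0625 by the size of the difference. Without the block the size form gave the cis share of 88.1% an exact permutation p of 0.0357 in place of 0.0714.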

Other observations

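Outside the longest absent stretch of each chromosome, the longest run of absent 100 kb bins was chr9:20800001-26600000, of 5.8 Mb. K562 is known to lack both copies of part of the short arm of chromosome 9. The run of class 1 at the start of that chromosome ends in the bin where this stretch begins. On each other chromosome the second longest run was at most 3.1 Mb, the length of chr21:11200001-14300000.

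The compartment strength of chromosome 22, 2.27 ± 0.0297 (SD, n = 2), was the lowest of all chromosomes, and its cis maps were the most alike between the replicates, at 0.992.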
